A study of Mus musculus with 2 samples.

Results

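Duct-like epithelial nuclei were described here in single-nucleus RNA sequencing of mouse epididymal white adipose tissue (eWAT), the visceral fat pad that lies along the epididymis. They are nuclei with high counts of Adgrg2, Pax8 and Pkhd1 and without the transcripts of motile cilia, and 767 of the 16477 nuclei that passed the filters were of this kind. The study fed male mice a high-fat diet (HF) from 8 weeks of age, for 6 weeks before treatment and through 8 weeks of intraperitoneal injections given 3 times a week. The HF-HHT library held eWAT of mice injected with homoharringtonine (HHT), an inhibitor of protein synthesis used against leukaemia, and the HF-PBS library held eWAT of mice given the saline vehicle. Each library was 1 pool of 3 mice and 1 sequencing library, so that no test between the conditions was possible, and the dissection, the pool and the treatment cannot be told apart. The methods name C57BL/6N and p16-Luc mice for this diet experiment without saying which were pooled.

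Efferent ducts carry sperm and fluid from the testis to the epididymis, and they develop from mesonephric tubules under regulators shared with the kidney, including Pax2, Pax8, Emx2 and Lhx1. Their epithelium has non-ciliated cells, which take up most of the luminal fluid through ion exchangers and aquaporins and take up protein through megalin (Lrp2), and multiciliated cells, which stir the fluid. Oestrogen receptor alpha (Esr1) is known to be abundant in this epithelium and to be needed for its fluid uptake, and Adgrg2 is an adhesion G-protein-coupled receptor of the non-ciliated cells, which couples there to the chloride channel Cftr. The epididymis proper follows, with principal cells that secrete region-specific lipocalins, ribonucleases, cystatins and defensins, clear cells rich in the vacuolar proton pump, and basal cells.

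Nuclei were chosen by measured values. A member had at least 0.15% of its unique molecular identifiers (UMIs, counts of distinct captured RNA molecules) and at least 5 UMIs on Adgrg2, Pax8 and Pkhd1 together, at least 1 UMI of Pax8 or Pkhd1, and under 0.15% on Dnah9, Foxj1, Hydin and Cfap61. In HF-HHT, 767 of 7859 nuclei were members, a share of 9.76% (exact Clopper-Pearson 95% interval 9.11 to 10.4%). In HF-PBS, 0 of 8618 nuclei were members, and the upper limit of the same kind of interval was 0.0428%. These intervals and limits cover counting error only. The members held a median of 0.598% of their UMIs on the 3 genes, and no member had under 0.159%. Just inside the limit, 16 members lay between 0.15 and 0.20%, and just outside it 22 nuclei of HF-HHT lay between 0.10 and 0.15%, with a median of 16486 UMIs each. A further 110 nuclei of HF-HHT and 13 of HF-PBS passed the share with fewer than 5 UMIs of the 3 genes, and 81 nuclei of HF-HHT met every gene limit but were ciliated.

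**Figure D1:**
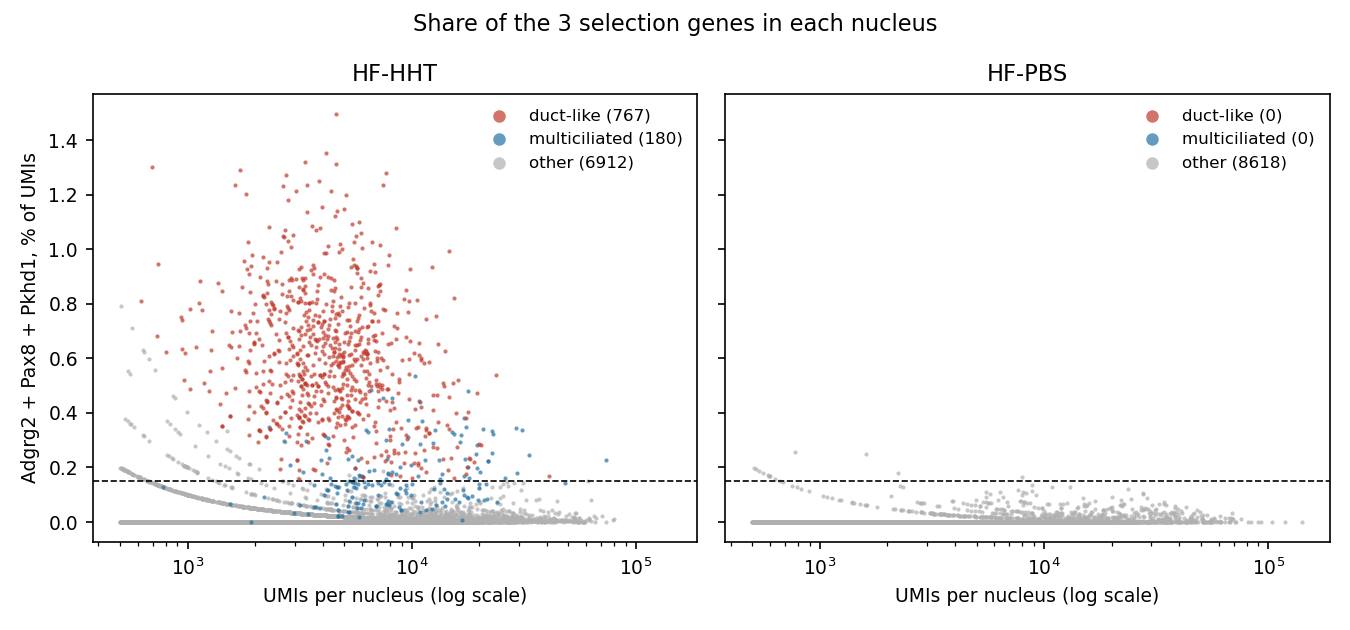
Each point is 1 nucleus, with its UMIs on a log axis and the percent of its UMIs on Adgrg2, Pax8 and Pkhd1 on the vertical axis, in HF-HHT (left) and HF-PBS (right). The dashed line is the limit of 0.15%. The 767 duct-like nuclei of HF-HHT form a cloud around 0.598%, the 180 multiciliated nuclei lie lower, and HF-PBS has neither.

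Pax8 and Pkhd1, which chose the members, were also counted without any limit, so the members are among the nuclei counted. A UMI of Pax8 or Pkhd1 was found in 1451 of 7859 nuclei of HF-HHT and in 18 of 8618 nuclei of HF-PBS. The most that any single nucleus carried was 113 UMIs of the pair in HF-HHT and 3 in HF-PBS. Multiciliated nuclei, set apart by Dnah9, Foxj1, Hydin and Cfap61, were 180 of 7859 in HF-HHT (2.29%, 1.97 to 2.65%) and 0 of 8618 in HF-PBS, so both epithelial kinds were seen in the same library. Depth was alike in both libraries: the nuclei outside the members had a median of 3959 UMIs in HF-HHT and 4073 UMIs in HF-PBS. The members themselves had between 618 and 40903 UMIs, with a median of 4243 UMIs and 2126 genes. Of the 767 member barcodes, 2 were also among the barcodes of HF-PBS with 500 or more UMIs.

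The RNA of nearly empty barcodes, which the choice of members did not use, differed too, though Pkhd1 and Pax8 are themselves genes of the rule. Barcodes with under 100 UMIs held 1823227 UMIs in HF-HHT and 1606244 UMIs in HF-PBS, and such counts come from free RNA in the suspension and from misread barcodes. Pkhd1 stood at 193 CPM (UMIs of a gene per 1000000 UMIs; exact Poisson interval 173 to 214) in HF-HHT, from 351 UMIs, and at 0.623 CPM (0.0158 to 3.47) in HF-PBS, from 1 UMI. Pax8 stood at 36.7 CPM in HF-HHT, from 67 UMIs, and at 0 CPM in HF-PBS. With HF-PBS set to a floor of 3 counts it was 19.7-fold higher in HF-HHT (log2 ratio 4.30, exact lower limit 3.96). Of 12181 genes with at least 20 UMIs over both libraries, 7.96% were at least 4-fold higher in the near-empty barcodes of HF-HHT. Esr1, which other cells of the fat pad also express, differed less, with 564 CPM in HF-HHT and 75.3 CPM in HF-PBS. The free RNA of Pkhd1 in HF-HHT was 7.05% of its level in the duct-like nuclei and that of Pax8 6.60%. Among barcodes ranked 45000 to 90000 by UMIs, Pax8 and Pkhd1 together stood at 158 CPM in HF-HHT and at 0 CPM in HF-PBS.

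**Figure D2:**
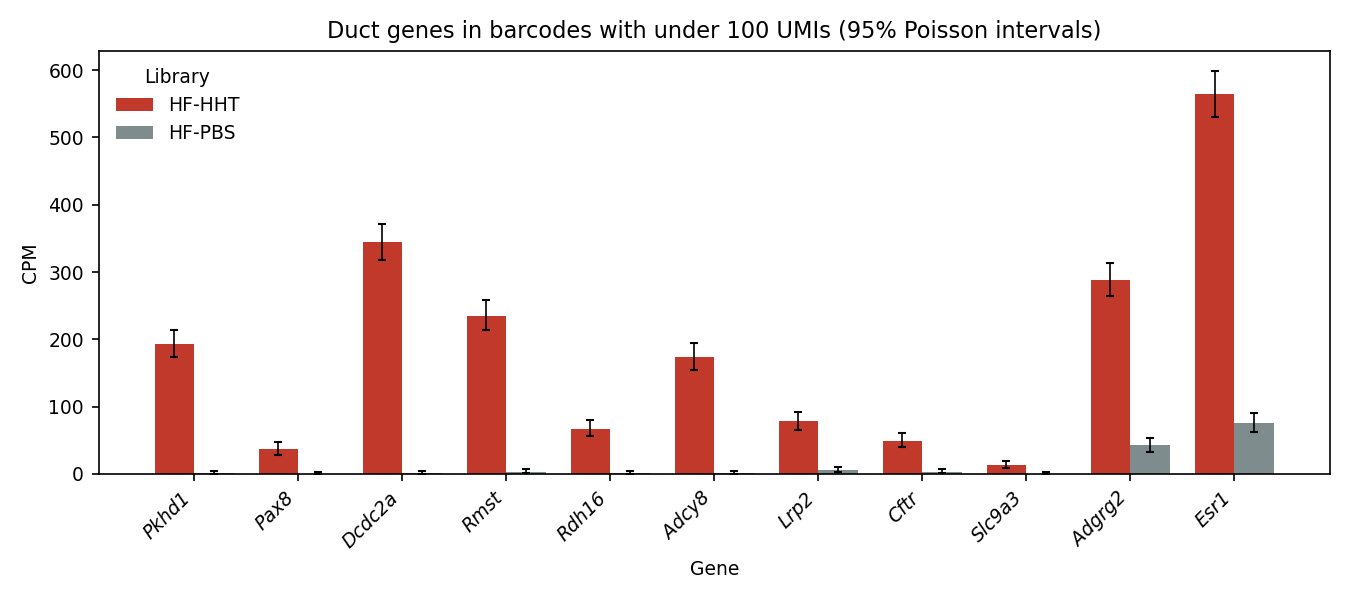
Bars are CPM of 11 genes in barcodes with under 100 UMIs, HF-HHT in red and HF-PBS in grey, with exact 95% Poisson intervals. Pkhd1 reaches 193 CPM in HF-HHT and 0.623 CPM in HF-PBS, whereas Adgrg2 and Esr1 have a visible level in both libraries.

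The 5 genes taken as markers were all abundant in the members. Pkhd1 (chr1:20057779-20618064, GRCm38, minus strand) encodes fibrocystin, a protein of the primary cilium and the apical membrane of ducts. It had 10679 UMIs in the members, 2729 CPM against 21.8 CPM in the other nuclei of HF-HHT that were neither duct-like nor multiciliated, and its median was 11 UMIs per nucleus, with a highest count of 110. Pax8 (chr2:24420560-24475599, minus strand), a paired-box transcription factor, had 557 CPM in the members against 2.92 CPM in the other nuclei. Adgrg2 (chrX:160390690-160498070, plus strand) had 2404 CPM in the members and 87.3 CPM in the other nuclei. These 3 values chose the nuclei and are a description of them. Esr1 (chr10:4611593-5005614, plus strand) had 3269 CPM in the members against 457 CPM in the other nuclei, a log2 ratio of 2.84 (2.81 to 2.87, exact interval for counting error). Lrp2 (chr2:69424340-69586065, minus strand) had 665 CPM in the members against 28.3 CPM in the other nuclei, a log2 ratio of 4.55 (4.46 to 4.65). Every ratio between members and other nuclei is a description, since the members were selected on measured expression within 1 library.

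A UMI of Pkhd1 was found in 99.2% of the members and in 3.85% of the macrophages of HF-HHT, which should lack it, at median depths of 4243 and 4505 UMIs. The same shares were 83.1% and 0.684% for Pax8, 99.2% and 8.45% for Adgrg2, 80.4% and 3.05% for Lrp2, and 98.6% and 35.7% for Esr1. The macrophages of HF-PBS, at a median of 4854 UMIs, held a Pkhd1 UMI in 0.148% of nuclei and an Esr1 UMI in 15.8%. Over all nuclei of a library, Pkhd1 stood at 249 CPM in HF-HHT and 0.361 CPM in HF-PBS, and Pax8 at 53.8 CPM in HF-HHT and 0.0361 CPM in HF-PBS. Lrp2 and Adgrg2 were not confined to the members: mesothelial-list nuclei had 419 CPM of Lrp2 in HF-HHT and 202 CPM in HF-PBS, and adipocyte-list nuclei had 111 CPM of Adgrg2 in HF-HHT and 226 CPM in HF-PBS.

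The promoters of the 3 genes that chose the nuclei are shown because these genes define the members. That of Dcdc2a, which was not used to choose them, is shown as a gene among the 20 highest ratios. The windows run from 250 bases before to 50 bases after the RefSeq start on GRCm38.p6, 5′ to 3′ on the strand of the gene, with the first 50 transcribed bases in capitals. Pkhd1 lies at chr1:20618008-20618307 on the minus strand, Dcdc2a at chr13:25055754-25056053 on the plus strand, Pax8 at chr2:24475550-24475849 on the minus strand, and Adgrg2 at chrX:160390440-160390739 on the plus strand.
Pkhd1: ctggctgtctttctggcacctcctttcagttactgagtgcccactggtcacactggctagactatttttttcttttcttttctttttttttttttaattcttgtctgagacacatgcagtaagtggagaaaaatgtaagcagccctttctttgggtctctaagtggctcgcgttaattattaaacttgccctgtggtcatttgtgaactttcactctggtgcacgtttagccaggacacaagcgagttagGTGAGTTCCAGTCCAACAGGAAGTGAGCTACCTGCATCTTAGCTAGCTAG
Dcdc2a: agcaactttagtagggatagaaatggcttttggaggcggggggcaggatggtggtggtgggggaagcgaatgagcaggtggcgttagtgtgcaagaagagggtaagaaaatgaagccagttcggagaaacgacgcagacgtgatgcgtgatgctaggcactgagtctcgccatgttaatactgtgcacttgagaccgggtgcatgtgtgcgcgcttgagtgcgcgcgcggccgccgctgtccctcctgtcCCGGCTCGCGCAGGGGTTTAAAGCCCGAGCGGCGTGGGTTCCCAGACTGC
Pax8: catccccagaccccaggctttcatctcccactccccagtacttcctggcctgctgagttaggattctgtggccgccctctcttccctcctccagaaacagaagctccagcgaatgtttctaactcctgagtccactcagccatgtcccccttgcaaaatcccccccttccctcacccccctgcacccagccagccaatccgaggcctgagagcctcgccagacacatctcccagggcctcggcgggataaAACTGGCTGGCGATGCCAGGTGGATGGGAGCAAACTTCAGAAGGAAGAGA
Adgrg2: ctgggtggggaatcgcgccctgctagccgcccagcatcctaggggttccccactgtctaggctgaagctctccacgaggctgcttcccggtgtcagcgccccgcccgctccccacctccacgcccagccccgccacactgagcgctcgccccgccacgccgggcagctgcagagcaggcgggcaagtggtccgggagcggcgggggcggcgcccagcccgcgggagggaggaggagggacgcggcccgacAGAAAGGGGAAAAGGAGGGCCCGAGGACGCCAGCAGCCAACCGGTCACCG

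The 4 windows differed in base composition. Pkhd1 had 43.3% G and C and 4 CG pairs, and Adgrg2 had 74.0% and 30 CG pairs. Dcdc2a and Pax8 both had 59.3%, with 24 and 7 CG pairs. Over all 32851 windows the median was 52.7% and 7 CG pairs. Among genes with a window, the medians were 58.3% and 14 CG pairs for 1033 genes at least 4-fold higher in the members and 55.7% and 9 for 1072 genes at least 4-fold lower. The 10726 genes in between had a median of 20 CG pairs.

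Of 17545 genes with at least 20 UMIs over both sets, 1451 were at least 4-fold higher in the members than in the other nuclei of HF-HHT (8.27%) and 1589 were at least 4-fold lower (9.06%). The median log2 ratio over all these genes was -0.06. With each nucleus weighted equally, 1361 genes were at least 4-fold higher and 2623 at least 4-fold lower. After Pax8, the ratio was highest for Kcnh8, a voltage-gated potassium channel (405 CPM in members, 2.34 CPM in other nuclei, log2 ratio 7.43). Ano5, of the anoctamin family, came next (348 and 2.04 CPM, 7.41). Multiciliated nuclei, which are not among the other nuclei, had 435 CPM of Kcnh8 and 92.9 CPM of Ano5. Rdh16, a retinol dehydrogenase, had 829 CPM in the members against 5.09 CPM in the other nuclei, and the long non-coding RNA Rmst had 3239 CPM in the members against 21.1 CPM. Rmst was seen in 96.0% of the members and in 4.97% of the macrophages.

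Most of the other genes among the 20 highest ratios, between 6.88 and 7.24 on the log2 scale, fell into a few roles. Genes of cilia and microtubules were Dcdc2a, a doublecortin-domain protein of the primary cilium (3609 CPM in members, 26.4 CPM in other nuclei), and Ttll10, a tubulin-modifying enzyme (69.5 and 0.537 CPM). The multiciliated nuclei had 2105 CPM of Dcdc2a and 72.5 CPM of Ttll10. Signalling genes were Adcy8, a calcium-stimulated adenylyl cyclase (2497 and 19.2 CPM), the receptor phosphatase Ptprt (1188 and 7.89 CPM), Kl, the klotho co-receptor of a phosphate-regulating hormone (80.0 and 0.623 CPM), and Paqr5, a membrane progestin receptor (172 and 1.46 CPM). Tinag, a basement membrane protein of kidney tubules, had 189.9 CPM in the members and 1.46 CPM in the other nuclei, and Fermt1, an integrin adaptor of epithelia, had 279.8 and 2.24 CPM. Enzymes were Corin, a membrane protease, Cyp2j13, a cytochrome P450, and Srd5a2, which turns testosterone into dihydrotestosterone and had 226 CPM in the members against 1.87 CPM in the other nuclei. The transcription factor Sim1 and the kelch-domain gene Klhl14 were also among them.

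The 6 lowest ratios belonged to Rgs7, Ccdc152, Sybu, Rbfox1, Angpt1 and Art3, between -4.29 and -3.76. Rgs7, a regulator of G-protein signalling, had 16.9 CPM in the members and 329.9 CPM in the other nuclei, and Art3 had 30.7 CPM in the members and 417 CPM in the other nuclei. Rgs7 was seen in 4.17% of the members and 3.92% of macrophages, and Art3 in 7.30% and 7.21%. Of the 46519694 UMIs of the other nuclei, 22502131 were from adipocyte-list nuclei. Most members carried little of any other cell type's markers: 709 of 767 (92.4%) were below 0.2% of UMIs or 5 UMIs for every such list, and 58 were not. Among the 58, 15 held the adipocyte list at a median of 13779 UMIs, 13 the macrophage list at 9202 UMIs, and 10 each the adipocyte precursor and the erythroid list.

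Genes of epithelial identity were high in the members as a group. Of 25 listed genes 23 were measured and 21 were at least 4-fold higher in the members, where 8.27% of all measured genes were, in a contrast that the choice of nuclei had used. Its median log2 ratio was 4.53. Prom1, an apical membrane glycoprotein, had 564 CPM in the members against 6.66 CPM in the other nuclei. The epithelial splicing factor Esrp1 had 54.9 CPM against 0.838 CPM, and the epithelial transcription factor Grhl2 had 42.9 CPM against 0.559 CPM. Epcam, the general epithelial adhesion molecule, had 69.0 CPM in the members and 2.21 CPM in the other nuclei, and was seen in 24.1% of the members and 0.994% of macrophages. In the multiciliated nuclei Prom1 had 504 CPM, Esrp1 83.0 CPM, Grhl2 27.1 CPM and Epcam 146 CPM. The simple-epithelium keratin Krt19 (log2 ratio 1.47) and Krt7 (-0.17) were the 2 measured genes between the limits.

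Among 17 regulators of the nephric and Wolffian duct, 14 were measured, 10 were at least 4-fold higher in the members (8.27% of all measured genes were) and 1 was at least 4-fold lower. Pax8, which was used to choose the nuclei, is 1 of the 10 and enters the median of the list. The homeobox gene Lhx1 had 36.3 CPM in the members and 0.322 CPM in the other nuclei, and Pax2, the paralogue of Pax8, had 147 CPM against 1.46 CPM. Their log2 ratios were 6.81 and 6.66. Ret, the receptor of the ureteric bud and nephric duct, had 40.4 CPM in the members and 2.90 CPM in the other nuclei, and Wnt9b, a duct-derived Wnt ligand, 5.37 and 0.172 CPM. Gata3, which marks the nephric duct and the collecting system, was the gene below the limit, with 1 UMI in all members and a log2 ratio of -4.20 (-9.51 to -1.71). The posterior Hox genes Hoxd10 and Hoxd11 were at 0 in the members, and Hoxa10 and Hoxa11 had 1 UMI each.

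**Figure D3:**
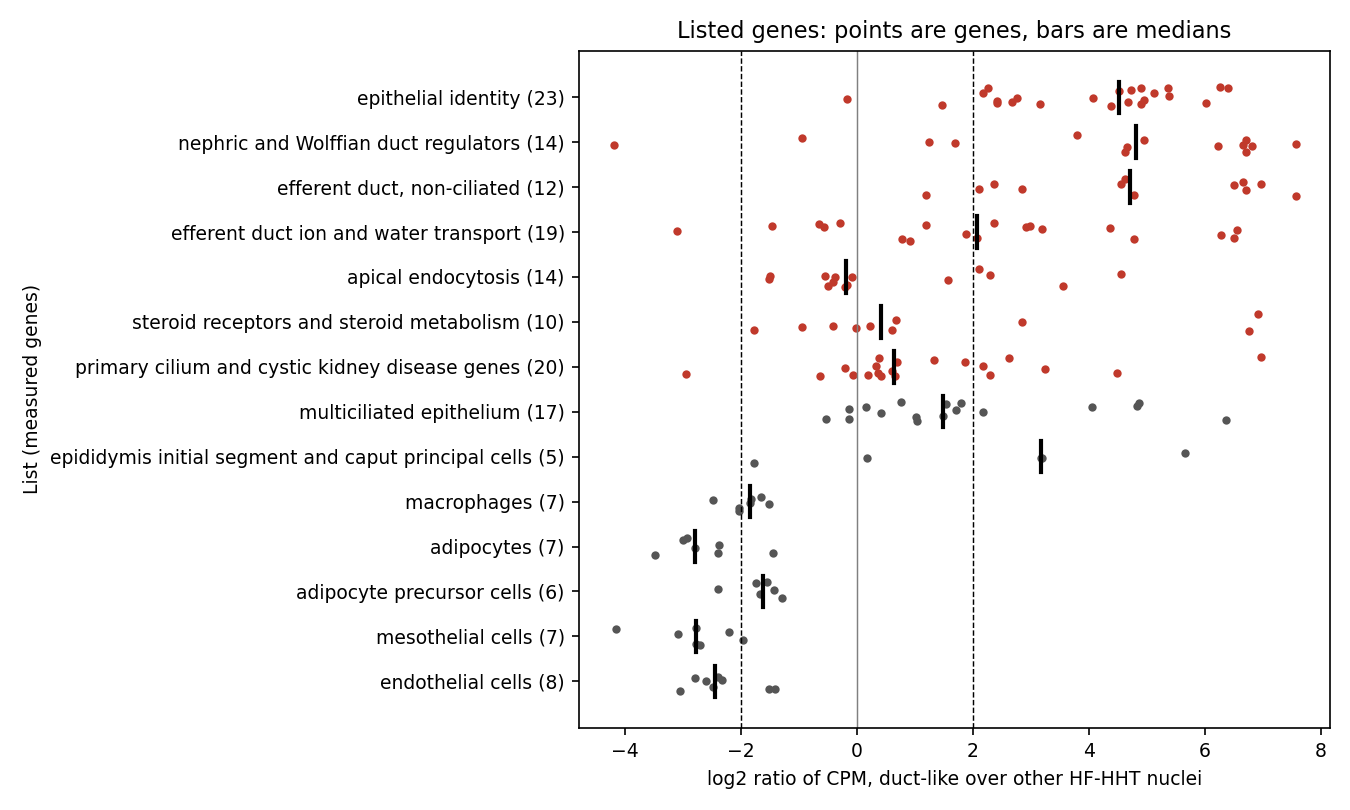
Each point is 1 measured gene, placed by its log2 ratio of CPM in duct-like over other HF-HHT nuclei, in 14 lists, with black bars at the list medians and dashed lines at 4-fold. The epithelial, nephric duct and efferent duct lists have medians of 4.53, 4.81 and 4.71, and the lists of the fat pad's other cells have medians below 0.

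Of the 12 genes listed for non-ciliated efferent duct cells, all were measured and 11 were at least 4-fold higher in the members. Of all measured genes 8.27% were, and the median log2 ratio of the list was 4.71. Car2, the cytosolic carbonic anhydrase, was the exception, with 46.5 CPM in the members and 20.4 CPM in the other nuclei. Cubn, the partner of megalin, had 41 UMIs in the members, of which 28 came from 2 nuclei described below. Without the nuclei with 5 or more UMIs of the kidney list, 10 of the 12 genes were at least 4-fold higher. Summed over the list, the members had 10285 CPM, the multiciliated nuclei 4098 CPM, the other nuclei of HF-HHT 642 CPM and all nuclei of HF-PBS 149.6 CPM. The list holds the 3 genes that chose the nuclei as well as Esr1 and Lrp2, and its remaining genes include the water channel Aqp1 (72.1 CPM in members, 14.0 CPM in other nuclei) and the homeobox gene Emx2 (63.4 and 2.56 CPM). For Aqp1 and Car2 the near-empty barcodes of HF-HHT held 75.3% and 96.7% of the level in the members, and the part of free RNA in these levels was not tested.

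Of 19 measured genes of ion and water transport, 10 were at least 4-fold higher in the members (8.27% of all measured genes were), and Adgrg2, which was used to choose the nuclei, is 1 of the 10. Slc26a3, a chloride-bicarbonate exchanger, had 84.6 CPM in the members and 0.903 CPM in the other nuclei. Slc9a3, the apical sodium-proton exchanger of fluid uptake, had 151 CPM in the members and 1.66 CPM in the other nuclei, and Cftr had 539 CPM against 6.90 CPM. A Slc9a3 UMI was found in 42.0% of the members and in 0.373% of macrophages, and a Cftr UMI in 73.4% of the members and 1.93% of macrophages. The sodium-bicarbonate cotransporter Slc4a4 was higher in the members too, at 1321 CPM against 176 CPM, though mesothelial-list nuclei of HF-HHT had 1041 CPM. The subunit of the sodium pump Atp1b1 had 325 CPM in the members and 15.9 CPM in the other nuclei. Car4, a membrane-bound carbonic anhydrase, was the gene at least 4-fold lower, with 3 UMIs in the members and a log2 ratio of -3.11 (-5.40 to -1.55).

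Of 14 measured genes of apical endocytosis, 4 were at least 4-fold higher in the members (8.27% of all measured genes were), with a median log2 ratio of -0.18. The 4 were Lrp2, the minus-end motor Myo6 (1099 CPM in members, 92.9 CPM in other nuclei), Rab11fip3 (303 and 61.7 CPM) and Cubn, and without the kidney-list nuclei described below Cubn had a log2 ratio of 0.71 in place of 2.11. The adaptor of megalin Dab2 had 681 CPM in the members and 227 CPM in the other nuclei. Ehd1 and Rab11fip5 had the lowest ratios, -1.50 and -1.52.

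Genes of steroid reception and metabolism differed among themselves. Esr1 was at least 4-fold higher in the members, and adipocyte-list nuclei of HF-HHT had 755 CPM of it. Esr2, the second oestrogen receptor, was at 0 in the members, and the progesterone receptor Pgr had 6 UMIs. Greb1, a coactivator of Esr1 and a target of it in breast cells, had 524 CPM in the members and 4.84 CPM in the other nuclei, and was seen in 80.7% of the members against 1.18% of macrophages. Of the 3 measured Srd5a genes, Srd5a2 was at least 4-fold higher, and the log2 ratios of Srd5a1 and Srd5a3 were 0.60 (-0.78 to 1.74) and -0.41 (-0.94 to 0.08). Nr3c1, the glucocorticoid receptor, and Sult1e1, the oestrogen sulfotransferase, had the lowest ratios of the list, -0.94 and -1.77, and Hsd11b2, Cyp19a1 and Gper1 were at 0. In all, 3 of 10 measured genes of steroid reception and metabolism were at least 4-fold higher and none was 4-fold lower. Of all measured genes, 8.27% were higher and 9.06% lower by this limit.

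Of 20 genes of the primary cilium and cystic kidney disease, 6 were at least 4-fold higher, Pkhd1 of the selection rule among them, and 1 was at least 4-fold lower. Of all measured genes 8.27% were higher and 9.06% lower by this limit, and the median log2 ratio of the list was 0.63. The gene that was lower was Pkhd1l1, a relative of Pkhd1, at 10.7 CPM in the members and 83.0 CPM in the other nuclei. Glis3, a zinc-finger factor whose loss gives cystic kidneys, had 2849 CPM in the members and 127 CPM in the other nuclei, and Bicc1 had 1408 CPM against 289 CPM. Dzip1l had 74.4 CPM against 7.89 CPM, and Cys1, cystin, 57.0 CPM against 9.18 CPM. Pkd1, the polycystin gene of the dominant disease, was not among them, at 57.5 CPM in the members and 89.7 CPM in the other nuclei.

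Lists of other urogenital and endocrine epithelia held many genes at 0 in the members. Of 23 genes of the principal cells of the epididymis, 15 were at 0 in the members, including the lipocalins Lcn5, Lcn8 and Lcn9, the ribonucleases Rnase9, Rnase10 and Rnase13, and Crisp4, Gpx5 and Adam7. Of the 5 measured genes of this list, 3 were at least 4-fold higher (8.27% of all measured genes were), with a median log2 ratio of 3.18. These 3 were Aqp9 (33.5 CPM in members, 3.68 CPM in other nuclei), which the liver and other cells also use, Cuzd1 and Ros1. The zona pellucida-domain gene Cuzd1 had 13.3 CPM in members and 1.46 CPM in other nuclei, and the receptor tyrosine kinase Ros1 had 17 UMIs in the members. Of the clear-cell list, Foxi1 was at 0 and the proton pump subunit Atp6v0a4 was high, with 389 CPM in the members against 8.81 CPM in the other nuclei. Atp6v0a4 is also a subunit of kidney tubules, and Atp6v1c2 had 3 UMIs in the members. The basal-cell keratins Krt5, Krt15 and Krt17 were at 0 and Krt14 had 1 UMI, with Trp63 at 6 UMIs. Cldn1, a tight junction protein, was the gene of the basal-cell list at least 4-fold higher, with 19 UMIs in the members and a log2 ratio of 4.01 (2.94 to 5.12). In the lists of thyroid follicle and of seminal vesicle and prostate, 5 of 6 and 10 of 11 genes were at 0, among them Nkx2-1 and Pbsn. The transglutaminase Tgm4, the measured gene of the seminal vesicle and prostate list, had 9 UMIs in the members, 2.30 CPM against 0.408 CPM in the other nuclei (log2 ratio 2.49, 1.17 to 3.71). Of the lists of germ, Sertoli and Leydig cells and of other epithelia, such as liver, gut and lung, 1 of 4 and 0 of 5 measured genes were at least 4-fold higher. All the members together held 3912928 UMIs, so a gene at 0 was not detected at this depth.

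The kidney tubule list was higher in the members, at 59.0 CPM against 4.79 CPM in the other nuclei. Most of its UMIs in the members came from few nuclei. Of 231 UMIs, 166 came from 1 member and 34 from another, which held 49 and 28 UMIs of the phosphate transporter Slc34a1, 21 and 7 UMIs of Cubn, and no Adgrg2. Their Pkhd1 counts were 24 and 23 UMIs and their Esr1 counts 0 and 1. These nuclei passed the rule through Pax8 and Pkhd1. With them and 4 further nuclei of HF-HHT with 5 or more UMIs of the list removed, the library had 765 members. Of the 13 kidney genes, Slc34a1 alone was then measured, in place of 4, and it was at least 4-fold higher. Of all genes measured after the removal, 8.10% were. Before the removal, a Slc34a1 UMI was found in 3.13% of the members, so this gene was not confined to those nuclei. Slc12a1, of the loop of Henle, and Slc12a3, of the distal tubule, were at 0 in the members.

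**Figure D4:**
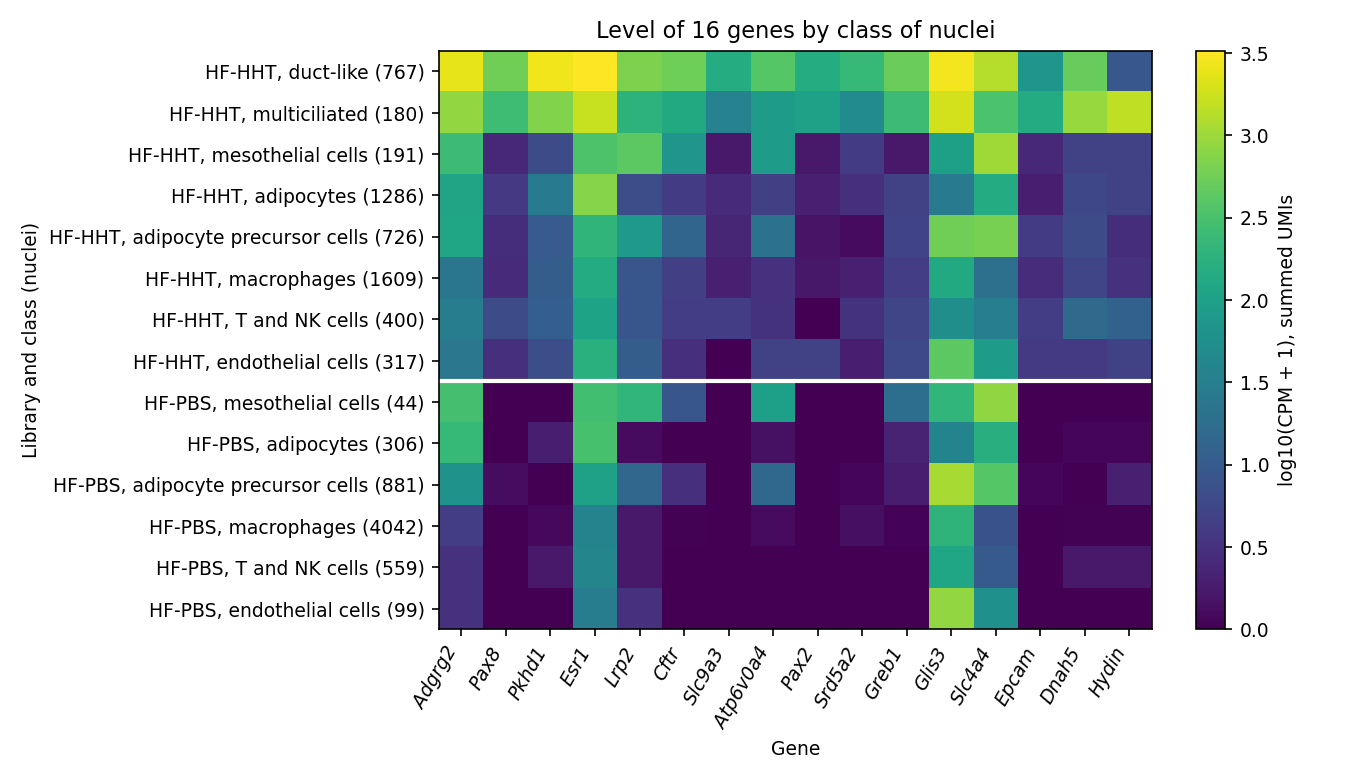
Colour is log10(CPM + 1) of 16 genes in the summed UMIs of each class, with the classes of HF-HHT above the white line and those of HF-PBS below it and the number of nuclei in brackets. Pax8, Slc9a3, Pax2 and Srd5a2 are brighter in the duct-like and multiciliated rows of HF-HHT than in every other row, whereas Esr1, Glis3 and Slc4a4 are also visible in other classes of both libraries.

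Lists of the cells of the fat pad were low in the members. Of all measured genes, 9.06% were at least 4-fold lower in the members. All 7 mesothelial genes were lower than in the other nuclei, 6 of them at least 4-fold. The mesothelial transcription factor Wt1 was at 8.69 CPM in the members against 59.7 CPM. Adipocyte genes were at least 4-fold lower for 6 of 7, with Plin1 at 46.3 CPM against 322 CPM, and macrophage genes for 3 of 7, with Mrc1 at 61.1 CPM against 251 CPM. Endothelial genes were at least 4-fold lower for 6 of 8, and no gene of the T and NK cell, erythroid or dividing-cell lists was past 4-fold in either direction. The summed macrophage list stood at 296 CPM in the members and 147 CPM in the multiciliated nuclei, so neither was free of it. The erythroid list stood at 301 CPM in the members, against 507 CPM in the other nuclei of HF-HHT. The dividing-cell list was at 64.4 CPM in the members and 193 CPM in the other nuclei.

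The multiciliated nuclei of the same library, at a median of 7859 UMIs each, carried the regulators of the members at levels that differed by gene. Of 13320 genes with at least 20 UMIs over both sets, 376 were at least 4-fold higher in the members (2.82%) and 1289 were at least 4-fold lower (9.68%). With multiciliated nuclei taken at 0.5% of UMIs on the cilia genes, 1054 genes were at least 4-fold higher and 1150 at least 4-fold lower. Of the 180 multiciliated nuclei, 30 were among the likely doublets, as were 6.29% of all nuclei of HF-HHT. The levels below are of the set at 0.15% with doublets kept, and the part of doublets in them was not tested. Sall1 had 66.2 CPM in the members and 63.2 CPM in the multiciliated nuclei, and Pax2 had 147 and 100.2 CPM. Pax8 (log2 ratio 1.08), Lhx1 (0.91), Ret (1.63) and Wnt9b (3.36, 0.73 to 8.73, from 1 UMI in the multiciliated nuclei) were higher in the members, and Gfra1, the co-receptor of Ret, was lower at 28.9 CPM in the members and 62.1 CPM in the multiciliated nuclei. Esr1 had 3269 CPM in the members and 1640 CPM in the multiciliated nuclei. The transporters differed more: Slc9a3 had a log2 ratio of 2.09 (1.73 to 2.48) over the multiciliated nuclei, Slc26a3 of 2.06 (1.57 to 2.57), Cftr of 2.01 (1.82 to 2.20), and Slc34a2, a phosphate transporter, of -5.77 (-8.07 to -4.17), with 0.767 CPM in the members against 41.8 CPM. Srd5a2 had 226 CPM in the members and 48.5 CPM in the multiciliated nuclei, and Pgr had 1.53 CPM in the members and 20.4 CPM in the multiciliated nuclei.

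Among genes with at least 100 UMIs in the members and 3 in the multiciliated nuclei, the highest ratios over the multiciliated nuclei were those of Slc6a5, a glycine transporter (28.1 CPM in members, 1.57 CPM in multiciliated nuclei), Prdm6, Tnc, Nr1h4, the bile acid receptor (39.9 and 3.13 CPM), Baiap2l2, Dgka, Bmper and Them7 (102 and 9.39 CPM). Tnc was seen in 1.56% of the members and 0.994% of macrophages, and Bmper in 6.13% of the members and 3.60% of macrophages. With the same limits turned round, the lowest were Ankfn1 (1.02 CPM in members, 1243 CPM in multiciliated nuclei), Dpp6, Dnah12, Dnaic1, Wdr95, Spag17, Kcnk2 and Bbox1, with log2 ratios between -10.25 and -8.39. Dnah12, Dnaic1 and Spag17 are parts of the motile axoneme, and the members were chosen to lack such genes.

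Some axonemal genes were nonetheless present in the members. Dnah5, an outer-arm dynein heavy chain, had 499.9 CPM in the members, 951 CPM in the multiciliated nuclei and 6.10 CPM in the other nuclei, and it was seen in 77.2% of the members against 1.62% of macrophages. Dnah11 had 153 CPM in the members against 5.29 CPM in the other nuclei, and Cfap44 had 108 CPM against 3.76 CPM. Dnah12, at 6.64 CPM in the members and 2832 CPM in the multiciliated nuclei, and Spag17, at 0.767 and 302 CPM, were near the level of the other nuclei. The free RNA of the library held the 4 cilia genes of the rule at 183 CPM in HF-HHT and 0.623 CPM in HF-PBS, and its part in the levels of Dnah5 was not tested.

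Clustering of the 7859 nuclei of HF-HHT without the 7 genes of the rule gave 19 clusters, and 735 of the 767 members (95.8%) fell in 2 of them. These 2 clusters held 32 nuclei that were not members and no multiciliated nucleus. The larger, of 749 nuclei with 721 members, was led by Slc6a5, Corin, Ddc, Klhl14, Crp and Rdh16 by fold. A further 14 members fell in a cluster of 35 nuclei with a median of 18978 UMIs, and 11 in a cluster of 519 nuclei with a median of 732 UMIs. The clustering thus kept most members together without the genes that chose them. Genes that follow those 7 remained in it, so that this is a description.

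Among themselves the members fell into 6 states when clustered on genes outside the lists. State 1 (219 nuclei, median 4110 UMIs) was led by the phosphodiesterase Pde10a, at 1175 CPM against 153 CPM in the other members, and had the highest Slc4a4 (1937 CPM), Slc26a3 (129 CPM), Cftr (712 CPM) and Ret (73.3 CPM) of the 6, with Lrp2 at 544 CPM. State 2 (196 nuclei, median 4192 UMIs) was led by Nkain2 (344 CPM against 54.5 CPM) and had Slc4a4 at 1009 CPM and Lrp2 at 686 CPM. State 4 (86 nuclei, median 5700 UMIs) was led by the glutamate receptor gene Grid1 (173 CPM against 29.9 CPM) and by Sim1 (295 CPM against 97.2 CPM), with Lrp2 at 1029 CPM, Slc9a3 at 232 CPM, Srd5a2 at 386 CPM, Glis3 at 4492 CPM and Atp6v0a4 at 650.2 CPM. Slc4a4 stood at 1685 CPM, Cftr at 637 CPM and Ret at 24.1 CPM in state 4. Pax8 was at 641, 571 and 758 CPM and Esr1 was at 3934, 3882 and 3258 CPM in states 1, 2 and 4. Counting intervals of Lrp2 did not overlap between states 1 and 4, and the states were drawn from the same nuclei, so that this is no test.

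State 3 (174 nuclei) was the shallowest, with a median of 3080 UMIs, and had Lrp2 at 1025 CPM, Slc9a3 at 238 CPM, Slc4a4 at 1552 CPM and Ret at 41.2 CPM. It was led by Slc27a2, Gpx3 and the haemoglobins Hba-a2 and Hba-a1, and 2 nuclei with the kidney list held 36 and 16 UMIs of Slc27a2 and 87 and 13 UMIs of Gpx3. A Slc27a2 UMI was found in 21.3% of state 3 and in 19.7% of the other members. State 5 (75 nuclei, median 8552 UMIs) had 1300 CPM of the macrophage list and 731 CPM of the adipocyte precursor list, and state 6 (17 nuclei, median 11609 UMIs) had 3379 CPM of the adipocyte list. These 92 nuclei stood at 6345 and 4051 CPM of the efferent duct list, against 11362 to 11949 CPM in the first 4 states. Without them, 1551 genes were at least 4-fold higher and 2391 at least 4-fold lower in the members than in the other nuclei, and the list counts were 21 of 23 epithelial and 11 of 12 efferent duct genes, as with them.

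**Figure D5:**
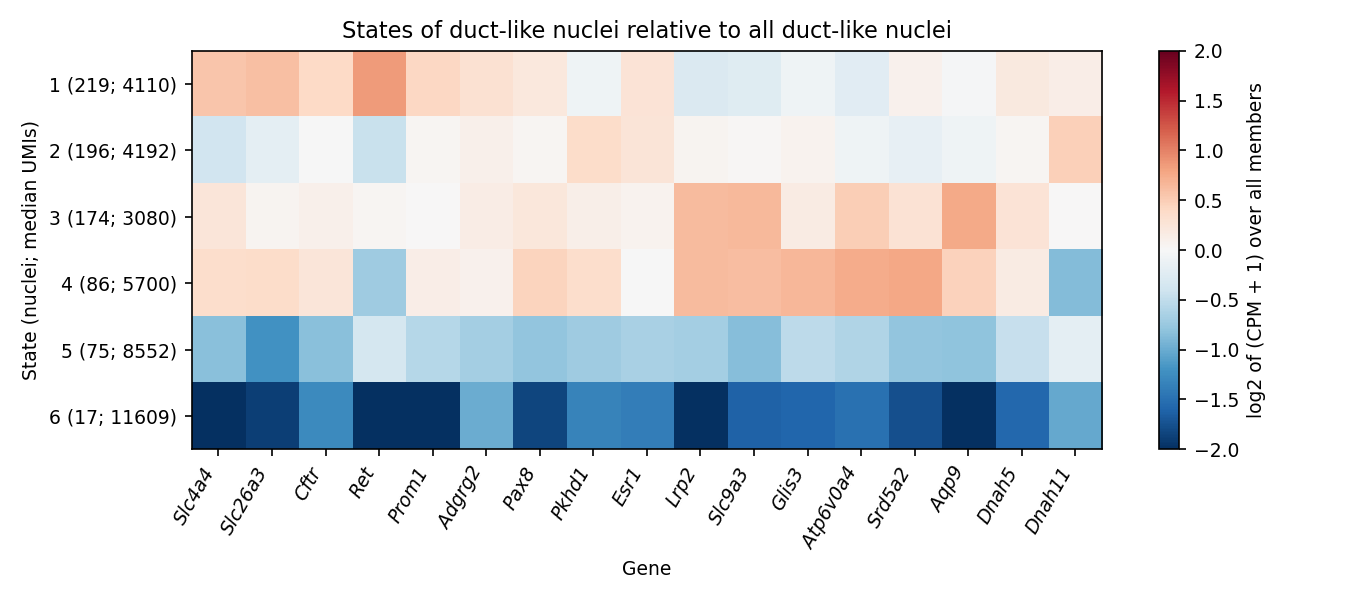
Colour is the log2 of (CPM + 1) in each state over that in all 767 duct-like nuclei, for 17 genes, with the number of nuclei and their median UMIs beside each state. States 3 and 4 are red for Lrp2 and Slc9a3, state 1 is red for Slc4a4, Slc26a3 and Ret, and states 5 and 6, at medians of 8552 and 11609 UMIs, are blue for most genes shown.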

How the data were processed

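Single-nucleus RNA sequencing of frozen eWAT was made from DAPI-sorted nuclei, 1 library of 3 pooled mice for each of HF-HHT and HF-PBS. The deposited files hold raw UMI counts of all barcodes, made by the authors with Cell Ranger 5.0.0 on mm10 per the labels. They are counts of reads collapsed by UMI, not normalized. The members, limits and gene lists were chosen with earlier results of these data known.

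Barcodes with at least 500 UMIs, over 400 genes and mitochondrial UMIs under 0.5% were kept as nuclei. Members were taken by the limits given above. Doublets were kept in the values reported, and an alternative removed the 6.29% (HF-HHT) and 6.89% (HF-PBS) of nuclei with the highest Scrublet scores, at 0.8% per 1000 nuclei. UMIs were summed over nuclei and scaled to CPM. Genes with at least 20 UMIs over both sets were measured, and a gene at 0 in a set stood at a floor of 3 counts. Intervals are exact Poisson, conditional binomial or Clopper-Pearson at 95% and cover counting error only. There is 1 library per condition, and no p-value was computed. Other nuclei were classed by the marker list with the largest share of UMIs, at least 0.2% and 5 UMIs. The whole library (30 components, resolution 1.0) and the members (20 components, resolution 0.6) were clustered with 2000 variable genes, 15 neighbours and the Leiden method in scanpy 1.11.5 with leidenalg 0.10.2. TMM factors came from edgeR 4.0.16 as an alternative scaling.

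Named genes were the 5 given markers, the 20 highest ratios over the other nuclei among genes with at least 100 UMIs and a UMI in 20% of members, the 6 lowest, the 4 highest and 2 lowest of each list with its genes at 0, and the 8 highest and lowest over multiciliated nuclei among genes with at least 100 UMIs in the higher set and 3 in the lower, with predicted genes left out. Other list genes were named after their values were seen, and some genes that the rule named are not reported here. Gene positions are from GENCODE vM21, which held 99.6% of the 32285 gene IDs, and promoters from RefSeq. On simulated counts for the ratio of members to other nuclei, 200 of 200 genes changed 8-fold were past 4-fold, as were 71 of 17094 unchanged genes. The changed genes were drawn from genes with many UMIs in the other nuclei, and the counts varied by Poisson error alone. This recovery therefore does not cover genes with few UMIs. Alternatives were other limits, a depth minimum of 1000 UMIs, upper limits at the 95th percentile, doublet removal, other scalings and other sets of barcodes with few UMIs.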

Additional observations from a re-analysis of the deposited data

Results flagged for a closer look

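Transcripts of kidney tubules were counted in both libraries and differed in number. At least 5 UMIs of the 13-gene kidney list were found in 6 nuclei of HF-HHT and in 0 nuclei of HF-PBS, and 2 of the 6 were among the duct-like nuclei. These 2 held 166 and 34 UMIs of the list.

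Barcodes ranked 45000 to 90000 by UMIs held 85 UMIs of the kidney list in HF-HHT (10.6 CPM) and 11 UMIs in HF-PBS (1.22 CPM), a log2 ratio of 3.11 (2.20 to 4.17, exact interval for counting error). Slc34a1 had 25 UMIs in HF-HHT and 1 UMI in HF-PBS, Kap had 20 and 0 UMIs, and Umod had 9 and 0 UMIs. With 1 library per condition, where these transcripts came from was not tested.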

How the results depend on the processing

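The number of duct-like nuclei in HF-HHT stayed between 642 and 790 under the 9 alternatives tried, and in HF-PBS it was 0 under each of them. Likely doublets took 103 of the 767 members and left 664. With no minimum of UMIs, 6389 genes were at least 4-fold higher in the members, since genes at 0 stand at the floor of 3 counts. With each nucleus weighted equally, 2623 genes were at least 4-fold lower, and without states 5 and 6 the number was 2391, in place of 1589. Against multiciliated nuclei taken at 0.5% of UMIs, 1054 genes were at least 4-fold higher in place of 376. The causes of these differences were not tested. In barcodes ranked 45000 to 90000, Pax8 and Pkhd1 stood at 158 CPM in HF-HHT and 0 CPM in HF-PBS. Of 1863 recomputed log2 ratios of 170 named genes, 1399 lay within the counting interval and 462 outside it. A further 2, of genes at least 4-fold apart as reported, changed sign. Slc5a12 was at -3.32 with the limit at 0.30%, and Prm2 at -0.55 with nuclei weighted equally. Changes of sign among genes with smaller reported ratios were not counted apart. The removals of nuclei by state, by another class's list and by the kidney list were chosen after seeing the data. No paired analysis was possible because each condition has 1 library.

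The limits are those of 1 pooled library per condition: the share of 9.76% has no replicate, and no error between mice can be given. Nuclear 3′ counts favour long, intron-rich genes, so levels of different genes were not set against each other. Pkhd1 and Pax8 were found in the near-empty barcodes of HF-HHT, and multiciliated nuclei carry both genes as well.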

Other observations

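In the barcodes of HF-HHT ranked 45000 to 90000 by UMIs, Cuzd1 had 189 UMIs (23.5 CPM), against 0 UMIs in HF-PBS. In nuclei its level was 13.3 CPM in the duct-like and 69.4 CPM in the multiciliated nuclei, so that the epithelial nuclei of the library carried it as well.

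The clustering of HF-HHT without the 7 genes of the rule held 1 cluster of 519 nuclei, with a median of 732 UMIs, in which Slc5a12, Slc13a1 and Slc34a1 ranked first by fold and Lars2, Cmss1 and AY036118 were among the 10 leading genes. Of its nuclei 11 were duct-like. In the whole library 6 nuclei held 5 or more UMIs of the kidney list, and the cluster is given no name.

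Protamine transcripts, which are made in spermatids, had few UMIs in each set: Prm2 had 9 UMIs in the duct-like nuclei (2.30 CPM) and 7.83 CPM in the multiciliated nuclei, against 0.430 CPM in the other nuclei of HF-HHT, and Prm1 had 3 UMIs in the duct-like nuclei (0.767 CPM) and 16 UMIs in the multiciliated nuclei (8.35 CPM), against 0.408 CPM in the other nuclei.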
